A study of Mus musculus with 12 samples.

Results

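The comparison described here is between 2 populations of mouse CD8 T cells that lack the transcription factor STAT3: Tc17 cells, cultured with IL-6 and TGFb (TGF-beta), and Tc1 cells, cultured with IL-12. It covers the 3 arrays titled as STAT3-/- Tc17 and the 3 titled as STAT3-/- Tc1, 6 of the 12 arrays in the series. A group has arrays labelled biological 1, biological 2 and technical 2, and the last 2 were averaged, which left 2 samples per group. That the technical array repeats biological 2 was taken from the shared number alone: over tested genes the SD of the difference between those 2 arrays was 0.209 to 0.352 across the groups, against 0.144 to 0.192 between biological 1 and biological 2. The other 6 arrays, wild-type (WT) Tc1 and Tc17 cells in the same layout, are used to show where the response without STAT3 differs. They also enter the choice of genes tested and the estimate of spread behind every STAT3-/- p-value. The question was what the Tc17 cytokines still change when STAT3 is absent.

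STAT3-/- cells came from Cd4cre+ STAT3fl/fl mice, in which a Cre recombinase driven by the Cd4 promoter deletes the floxed gene during T cell development in the thymus. Naive CD8 T cells of this genotype and of WT mice were sorted from spleen, mixed in equal parts and activated together with antibodies to CD3 (1 µg/ml) and CD28 (3 µg/ml). All groups therefore shared the same stimulation, and each STAT3-/- sample shared its medium with WT cells. The culture lasted 4 days: 3 days with IL-12 or with IL-6 and TGFb, then 1 day with IL-2. WT and STAT3-/- cells were separated at the end by sorting on allelic markers, and total RNA was hybridised to Affymetrix arrays. The labels do not say whether replicates came from separate mice or cultures, so the p-values reflect the spread among these samples alone, and part of that spread may be technical. No source used here gives the age of the mice.

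As background, IL-6 binds a receptor that uses the gp130 chain and activates STAT3, which in T cells induces the type 17 cytokines and their regulators. TGF-beta signals through a separate receptor pair and the SMAD proteins, and does not need STAT3. IL-12 acts mainly through STAT4 and drives the type 1 program, with IFN-gamma, the IL-18 receptor and cytotoxic granule proteins. A Tc17 culture thus combines a STAT3-dependent and a SMAD-dependent signal and lacks IL-12, and a comparison with Tc1 measures all 3 at once.

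Values are log2 intensities per gene as the authors normalized them, so a difference of 1 is 2-fold. Of 22180 genes with a probe set of their own, 9862 reached a mean of 5 in at least 1 of the 4 groups and were tested, and 9588 of these did so in a STAT3-/- group. A gene is said to have risen or fallen where limma's moderated test gave a Benjamini-Hochberg adjusted p under 0.05 over the 9862 genes. Array medians over all probe sets were 3.95 to 4.10. The Tc17 WT technical array stood apart from the others, with a median correlation of 0.9712 against at least 0.984 for the rest. Stat3 itself read 6.99 to 7.67 on the 3 STAT3-/- Tc1 arrays and 7.59 to 7.93 on the 3 STAT3-/- Tc17 arrays, against 9.77 to 10.13 and 10.38 to 10.72 on the WT arrays, with no overlap between genotypes. No source used here says whether its probes lie inside the deleted part. Cd8a read 11.25 to 11.38 in STAT3-/- Tc1 and 11.44 to 11.54 in STAT3-/- Tc17, and Cd8b1 10.84 to 10.92 and 10.91 to 10.95, so the defining CD8 transcripts were high in both groups.

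Without STAT3, 204 of the 9862 genes differed between Tc17 and Tc1 cells (2.07%): 104 were higher in Tc17 (1.05%) and 100 were lower (1.01%). At least 2-fold changes were 34 rises and 33 falls. At an unadjusted p under 0.05 there were 1098 genes. The spread was estimated from all 4 groups. With only the STAT3-/- groups in the fit 218 genes passed, 176 of them among the 204. Gzma, Cd28, Eomes, Ermn, Bst1, Ccl3 and Sema7a did not pass in that fit (limma adjusted p 0.0542 to 0.101). On 1614 genes (16.4%) the 3 Tc17 arrays lay wholly above or wholly below the 3 Tc1 arrays. The count rested on few samples: it fell to 91 without STAT3-/- Tc17 replicate 1, 65 without STAT3-/- Tc17 replicate 2, 99 without STAT3-/- Tc1 replicate 1 and 123 without STAT3-/- Tc1 replicate 2, and rose to 409 when the technical arrays were left out. Of 74 genes named here that passed the test, 39 also passed it under every alternative run, and the others are marked where they appear.

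The integrin CD103, the transcription factor FOXP3 and a set of membrane genes headed the rises. The largest rises and falls were picked among called genes whose arrays did not overlap, so non-overlap adds no support for them. Itgae encodes the alpha chain of CD103, which holds T cells at epithelia and is a known target of TGF-beta. It read 3.74, 3.96 and 3.86 on the STAT3-/- Tc1 arrays (biological 1, biological 2 and technical, the order used throughout) and 7.50, 7.55 and 8.31 on the STAT3-/- Tc17 arrays. The Tc17 values were all far above the Tc1 values, a rise of 3.89 ± 0.20 (SE, n = 2 samples per group) with an adjusted p of 5.8e-05. The Tc1 values lay below the array medians, where background limits a reading, so the size is a difference of array values and may understate the change in RNA. Foxp3, which specifies regulatory T cells, read 5.14, 4.67 and 5.41 in Tc1 and 8.11, 7.90 and 8.89 in Tc17. The rise was 3.16 ± 0.22 (adjusted p = 0.00013). Cpd, which encodes carboxypeptidase D, an enzyme of the trans-Golgi network, read 6.19, 5.94 and 6.0 in Tc1 against 8.84, 8.94 and 9.27 in Tc17, a rise of 2.89 ± 0.16.

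Other large rises included Tmem273, Ldlrad4, Xcl1, Car2 and Clnk. The first 4 read 3.00 to 4.32 in Tc1, below or near the array medians, so the size and order of these rises are limited by background. Tmem273, a membrane protein, read 3.45, 3.79 and 3.71 in Tc1 and 6.16, 5.90 and 6.79 in Tc17 (2.66 ± 0.15). Ldlrad4, which encodes an inhibitor of SMAD activation, read 4.17, 4.02 and 4.17 against 6.38, 6.18 and 7.44 (2.46 ± 0.17). Car2, a carbonic anhydrase, rose by 2.28 ± 0.15 from 3.00 to 3.38 in Tc1 to 5.19 to 6.29 in Tc17. In each of these the technical Tc17 array was the highest of the 3. The same array was further apart for Xcl1, the chemokine lymphotactin, which draws XCR1-bearing dendritic cells: it read 4.19, 4.32 and 4.02 in Tc1 and 5.90, 5.85 and 8.26 in Tc17, a rise of 2.30 ± 0.30 (adjusted p = 0.0045), and of 1.62 when the technical arrays were left out. Clnk, an adaptor of immunoreceptor signalling related to SLP-76, read 4.87, 4.60 and 5.15 against 6.83, 6.77 and 7.57 (2.13 ± 0.13). The remaining top rises were Rragd, a Rag GTPase that signals amino acid supply to mTORC1 (1.89 ± 0.26; lost without STAT3-/- Tc17 replicate 2, adjusted p = 0.057), the tryptophan hydroxylase Tph1 (1.73 ± 0.11), the unconventional myosin Myo1e (1.68 ± 0.17) and Cd200, a ligand of an inhibitory receptor on myeloid cells (1.64 ± 0.17).

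The IL-18 receptor and Ly6c2 headed the falls. Il18r1, the ligand-binding chain of the IL-18 receptor, read 8.02, 8.0 and 7.94 in STAT3-/- Tc1 and 5.49, 5.54 and 5.12 in STAT3-/- Tc17. The arrays within each group were close to each other and the groups were far apart, a change of -2.58 ± 0.14, or 5.99-fold lower (adjusted p = 5.8e-05). Ly6c2, a GPI-anchored surface protein of effector CD8 cells, read 9.51, 9.54 and 10.02 against 7.50, 7.43 and 6.93, a change of -2.31 ± 0.28 (adjusted p = 0.0033). Ly6c2 has a near-identical neighbour, so its probes may also detect that copy. Havcr2, the inhibitory receptor TIM-3, read 8.20, 7.80 and 8.59 against 6.16, 6.15 and 6.20 (-2.03 ± 0.10). Cxcr6, a chemokine receptor of effector and resident T cells, read 7.20, 6.98 and 6.76 against 5.27, 5.35 and 5.48 (-1.69 ± 0.14). None of these genes had overlapping arrays, which was a condition for picking the largest falls.

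The other largest falls included 2 serpins. Serpinb9, which inhibits granzyme B and protects killer cells from it, fell by 1.75 ± 0.18, and Serpinb6b, a relative within a family of close copies, fell by 1.92 ± 0.17. Plxnc1, a semaphorin receptor, read 6.94, 6.60 and 7.19 in Tc1 and 5.33, 5.35 and 4.00 in Tc17, with the technical Tc17 array the lowest (-1.92 ± 0.18). Fam20a, a pseudokinase partner of a secretory pathway kinase, fell by 1.86 ± 0.10, and P2ry14, a receptor for UDP-glucose, fell by 1.63 ± 0.14. Gm6637 and Gm19585, known only by model names, fell by 2.24 ± 0.13 and 1.52 ± 0.20, the latter not passing without STAT3-/- Tc17 replicate 2 (adjusted p = 0.0554). Gbp7, an interferon-induced GTPase of a family of close copies, had a change of -1.65 ± 0.29 that passed the test in full (adjusted p = 0.023) and did not pass when any 1 of the 4 STAT3-/- samples was left out (0.082 to 0.21).

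**Figure D1:**
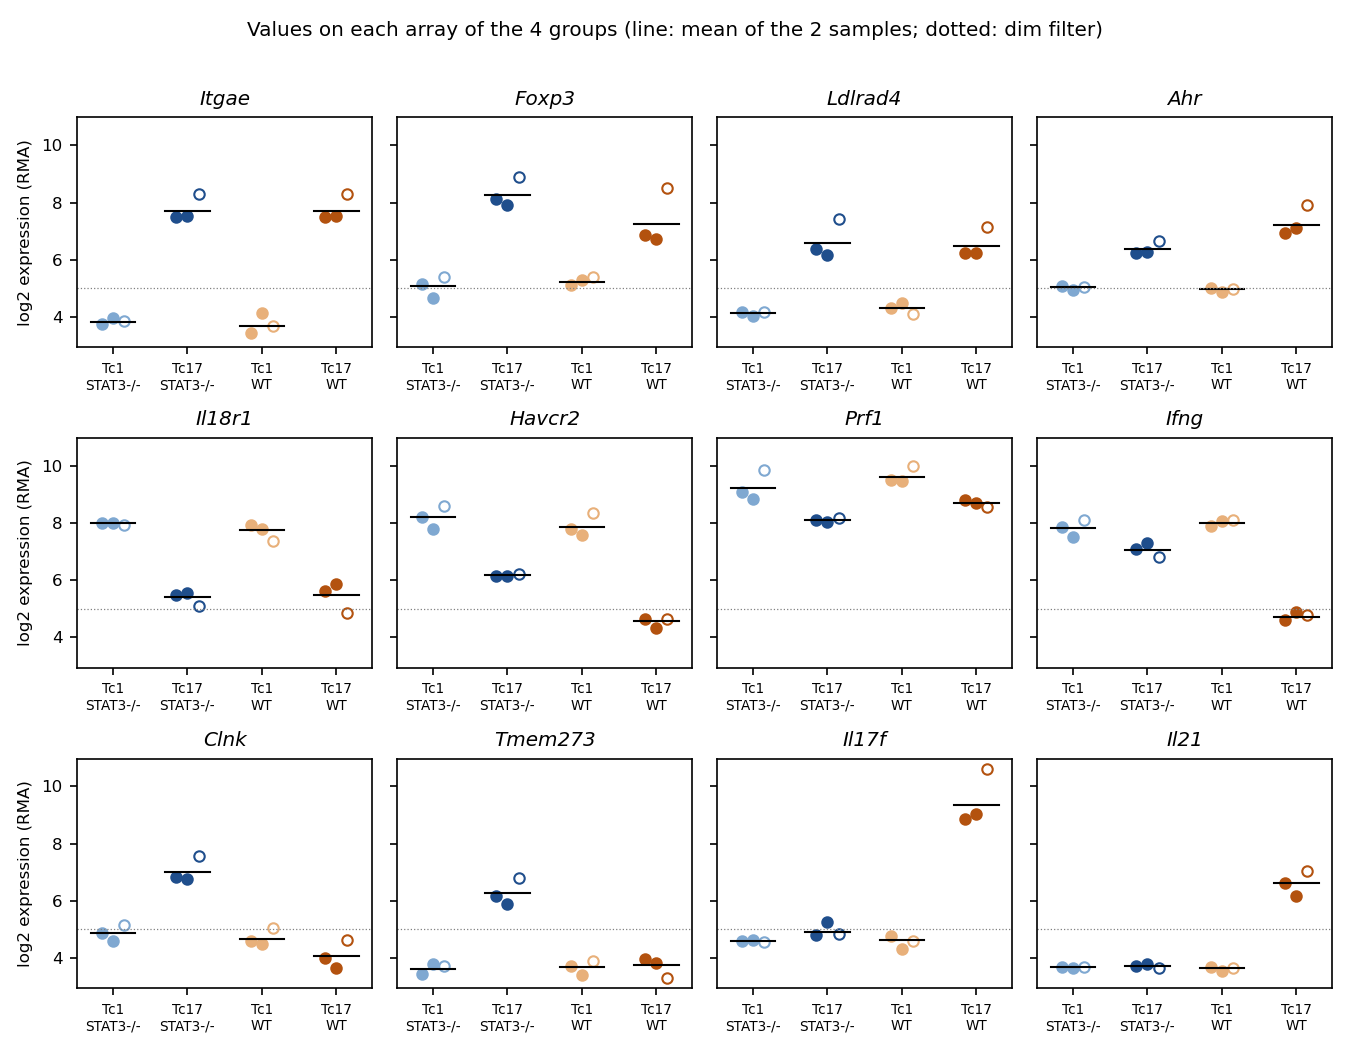
Log2 expression (y axis) of 12 genes on each array, with STAT3-/- Tc1, STAT3-/- Tc17, WT Tc1 and WT Tc17 along the x axis; filled points are biological arrays, open points technical arrays, black lines the means of the 2 samples and dotted lines the filter at 5. Itgae and Foxp3 lie higher on all 3 STAT3-/- Tc17 arrays than on the Tc1 arrays and Il18r1 lower, while Il21 reads 3.64 to 3.79 on all 6 STAT3-/- arrays.

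**Figure D2:**
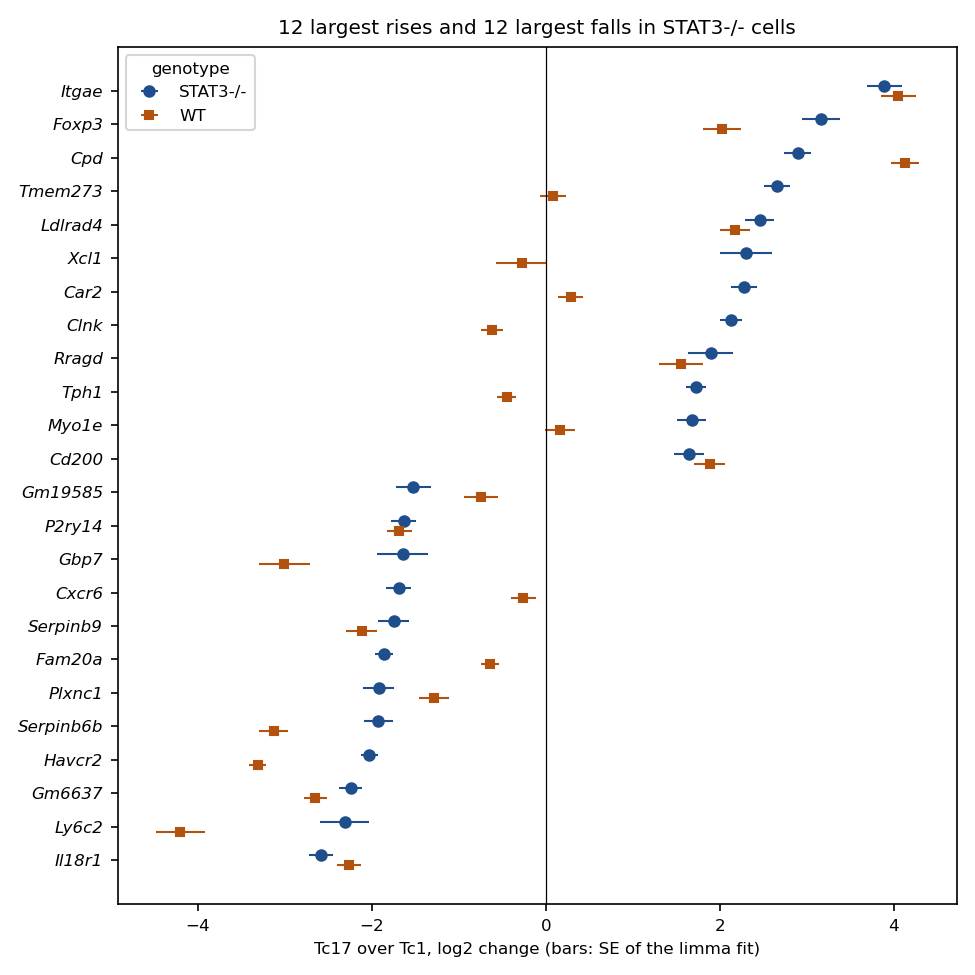
Change from Tc1 to Tc17 (x axis, log2 difference) for the 12 largest rises and the 12 largest falls in STAT3-/- cells, with circles for STAT3-/-, squares for WT and bars for the standard error of the fit (2 samples per group). The STAT3-/- rises run from 1.64 for Cd200 to 3.89 for Itgae, and the falls from -1.52 for Gm19585 to -2.58 for Il18r1.

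Promoter bases are shown for the 2 strongest falls among type 1 genes, since both fell in the absence of STAT3. They are the 250 bases upstream of the first listed start in the RefSeq table of build GRCm38.p6, which holds 3 starts for Il18r1 and 2 for Ly6c2. The Il18r1 window is chr1:40465302-40465551 on the plus strand and the Ly6c2 window chr15:75111972-75112221 on the minus strand. Capitals mark the single match to the SMAD core CAGAC on either strand.
Il18r1: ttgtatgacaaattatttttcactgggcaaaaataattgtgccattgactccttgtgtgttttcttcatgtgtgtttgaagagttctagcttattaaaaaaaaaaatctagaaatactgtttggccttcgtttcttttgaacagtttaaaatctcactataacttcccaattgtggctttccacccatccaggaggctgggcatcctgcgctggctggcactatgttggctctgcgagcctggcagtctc
Ly6c2: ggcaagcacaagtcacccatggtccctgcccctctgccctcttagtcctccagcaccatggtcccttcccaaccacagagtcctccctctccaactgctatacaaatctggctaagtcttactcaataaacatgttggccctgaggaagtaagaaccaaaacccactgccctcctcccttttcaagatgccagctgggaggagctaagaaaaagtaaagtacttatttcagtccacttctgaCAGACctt
CAGAC occurs in 42.2% of 32851 promoter windows of this length. The STAT element TTCNNNGAA, present in 7.02% of windows, and the T-box element TCACACCT, present in 1.12%, had 0 matches on either strand in both windows. The single match overlaps no other, and these are descriptions of letters in these windows.

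In the same cultures, WT cells changed far more genes between Tc1 and Tc17: 2468 (25%), of which 691 were higher (7.01%) and 1777 lower (18%). The share of higher genes among the WT calls depended on scaling, 28.0% as deposited against 50.5% after centring each array on its median over tested genes, whereas in STAT3-/- it was 51.0% against 49.8%. The median change over all tested genes was -0.104 in WT and 0.00 in STAT3-/-. The change itself differed between genotypes, as an interaction in the same model, for 676 genes (6.85%), with 442 more positive without STAT3 (4.48%) and 234 more negative (2.37%). That split also moved with scaling, from 65.4% more positive to 42.2% after centring. The STAT3-/- and WT contrasts share no sample, although the cells were cultured together. The interaction uses both.

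Of the 204 genes changed without STAT3, 120 (58.8%) changed in the same direction in WT cells, 56 of them rises and 64 falls. These 120 are 4.86% of the 2468 genes changed in WT. For 90 of the 120 the size of the change did not pass the test of a difference; of the other 30, 28 changed less without STAT3 and 2 changed more. A further 25 genes changed in opposite directions in the 2 genotypes. The difference passed for all 25, which 2 calls of opposite sign nearly ensure, so it is no separate result. Another 59 changed in STAT3-/- without passing in WT, 39 of them with a difference that passed. Read from the WT side, 148 genes rose at least 2-fold in WT Tc17 with a median change of 1.47, and their median in STAT3-/- cells was 0.26. Of these 148, 31 (20.9%) also rose without STAT3 and 4 fell. Only 107 reached a mean of 5 in a STAT3-/- group. For the others, tested through WT, the filter already favoured a smaller rise without STAT3. The 126 genes that fell at least 2-fold in WT had a median of -1.32 in WT and -0.35 in STAT3-/-, and 38 (30.2%) also fell without STAT3 while 1 rose. All 126 reached a mean of 5 in a STAT3-/- group, so the 2 sets are not directly comparable. Both sets were picked by their WT change, which also favours a smaller median in STAT3-/-. Across all tested genes the 2 changes had a Pearson r of 0.401 and a Spearman rho of 0.271, as a description over genes measured on the same arrays.

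**Figure D3:**
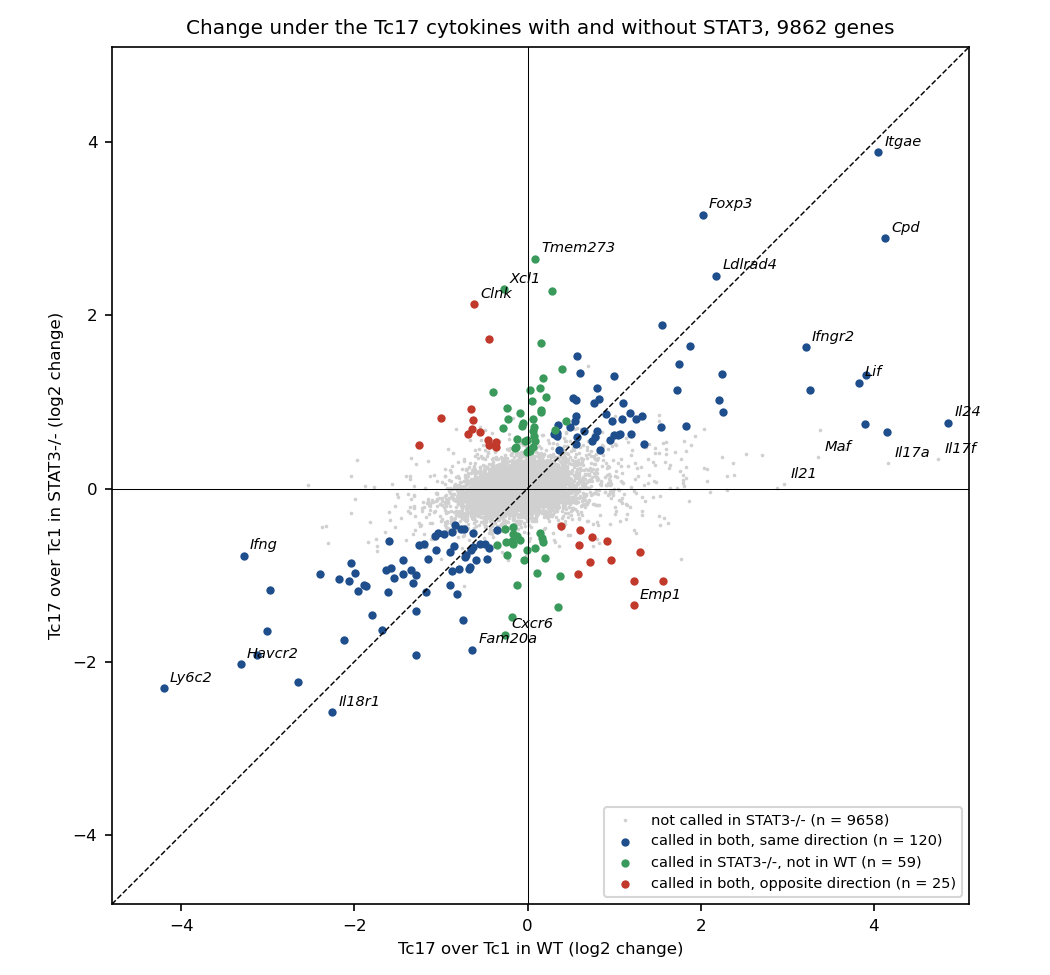
Change from Tc1 to Tc17 in STAT3-/- cells (y axis) against WT cells (x axis), both as log2 differences, with 1 point per tested gene, colours for the genotypes in which it passed the test and a dashed line of equal change. Itgae, Ldlrad4 and Il18r1 lie near that line, whereas Il17f, Il24 and Il17a have WT changes of 4.74, 4.86 and 4.17 and STAT3-/- changes of 0.30 to 0.76.

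Genes of the TGF-beta response kept some of the largest changes without STAT3. Of 26 listed genes 21 were tested; 4 rose and 1 fell in STAT3-/-, with a median of 0.08 beside 0.00 over all genes. In WT 8 rose and 1 fell, and 1 of the 21 (Smad3) differed between genotypes. Of all tested genes 1.05% rose and 1.01% fell in STAT3-/-, and 7.01% rose and 18% fell in WT. These shares stand beside every list count below. Without any 1 of the 4 STAT3-/- samples the counts were 3 and 0. The rises were Itgae, Ldlrad4, Pmepa1 and Skil. Pmepa1, an inhibitor of TGF-beta signalling that is itself induced by it, read 5.57, 5.40 and 5.77 in Tc1 and 6.89, 7.0 and 7.30 in Tc17 (1.44 ± 0.11, against 1.75 ± 0.11 in WT). Skil, a SMAD corepressor, was the weakest (0.78 ± 0.15, adjusted p = 0.04) and did not pass under 10 alternatives, among them each STAT3-/- sample left out in turn (0.105 to 0.342). Id2, an inhibitor of helix-loop-helix factors, was the fall (-0.55 ± 0.10, adjusted p = 0.033), and it too did not pass without any 1 STAT3-/- sample (0.0661 to 0.33). The interaction for Itgae was -0.16 ± 0.29 (adjusted p = 0.76), for Ldlrad4 0.28 ± 0.24 and for Pmepa1 -0.31 ± 0.16. Smad7, the inhibitory SMAD, changed by 0.19 (95% interval -0.09 to 0.46) and did not pass in WT either. Smad3, a signal transducer of the pathway, rose in WT by 0.84 and had -0.30 ± 0.12 in STAT3-/- (adjusted p = 0.38; difference -1.14, adjusted p = 0.006).

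Regulatory T cell genes showed 6 rises and 0 falls among 16 tested of 19 listed, with a median of 0.43; the rises were 10 with 1 fall when the technical arrays were left out, and 4 without Tc17 replicate 2. In WT 10 of the 16 rose and 3 fell. Without STAT3, 3 changes were more positive and 1 was more negative. Itgae and Foxp3 are in this list as well. Nt5e, the ecto-enzyme CD73 that makes adenosine, read 5.54, 5.41 and 4.82 in Tc1 and 6.59, 6.35 and 6.98 in Tc17 (1.29 ± 0.15). Izumo1r, the folate receptor family member FR4, rose by 1.02 ± 0.12. Ikzf2, which encodes Helios, read 8.39, 8.23 and 7.81 against 9.02, 9.10 and 9.14 (0.87 ± 0.14), and Ebi3, a subunit of IL-27 and IL-35, rose by 0.84 ± 0.12. Both of these calls were lost without single samples: Ikzf2 without either STAT3-/- Tc17 sample or Tc1 replicate 2 (0.0874 to 0.156), Ebi3 without Tc17 replicate 2 (0.0966) or Tc1 replicate 1 (0.0745), and Ebi3 also with the mean of its probe sets (0.059). For Foxp3 the WT rise was 2.02 ± 0.22, and the difference of 1.14 ± 0.31 did not pass (adjusted p = 0.06). It did pass under 8 of 23 alternatives, so the 2 rises cannot be called equal. Cd4, which would mark CD4 T cells, read 4.92 to 5.31 in STAT3-/- Tc1 and 4.84 to 5.20 in STAT3-/- Tc17, and the other tested CD4 lineage gene, Zbtb7b, changed by -0.03. In bulk RNA, more cells expressing a gene and more RNA per cell cannot be told apart.

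Most type 17 genes did not pass without STAT3. Of 19 listed genes 11 were tested, 5 of them only because their WT mean reached the filter, so passing the filter already favoured a difference by genotype for those 5. All 11 rose in WT, 1 (Ahr) rose in STAT3-/-, and 9 differed between genotypes; the STAT3-/- median was -0.02. Il17a, the signature cytokine, read 4.33, 4.23 and 4.15 in Tc1 and 4.63, 4.55 and 4.42 in Tc17. The arrays did not overlap but the gap was small, 0.30 (95% interval -0.21 to 0.80, adjusted p = 0.73), against 4.17 ± 0.22 in WT. Il17f changed by 0.34 (-0.25 to 0.93) against 4.74 in WT, and Il21, the helper cytokine, by 0.05 (-0.14 to 0.24) against 2.97. Maf, a transcription factor of IL-10 and IL-21 producers, changed by 0.36 (0.02 to 0.70; adjusted p = 0.41) against 3.36. Differences between genotypes for these 4 were -3.87, -4.40, -2.92 and -3.00. Il23r and Ccr6 stayed under the filter: on the STAT3-/- arrays Il23r read 2.63 to 2.96 in Tc1 and 2.65 to 2.84 in Tc17, and Ccr6 3.30 to 3.47 and 3.35 to 3.43. These readings lie in the range where array background limits what can be seen.

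Ahr, the aryl hydrocarbon receptor, was the exception. It read 5.07, 4.96 and 5.05 in STAT3-/- Tc1 and 6.25, 6.28 and 6.67 in STAT3-/- Tc17. All Tc17 arrays were higher, by 1.33 ± 0.17 (adjusted p = 0.0039), against 2.25 ± 0.17 in WT. The difference between genotypes was -0.92 ± 0.23, adjusted p = 0.051, and without STAT3-/- Tc17 replicate 2 the rise itself had an adjusted p of 0.0526.

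Among 18 tested genes known as targets of IL-6 and STAT3 (20 listed), 2 rose and 2 fell in STAT3-/-, against 12 and 2 in WT, and 8 had a more negative change without STAT3. Only 14 of the 18 reached the filter in a STAT3-/- group, and for the other 4, which entered through WT, passing the filter already favoured a difference by genotype. Leaving out the technical arrays gave 5 rises and 2 falls, and leaving out any 1 STAT3-/- sample gave 1 or 2 rises and 0 falls. Socs3, the feedback inhibitor of gp130 receptors, read 5.94, 5.92 and 6.14 in Tc1 and 6.03, 6.03 and 5.94 in Tc17. These arrays overlapped, with a change of 0.02 (95% interval -0.19 to 0.24), whereas WT cells rose by 1.19 ± 0.10 (difference -1.17 ± 0.13, adjusted p = 0.0016). Il6ra, the IL-6 binding chain, had 0.36 ± 0.11 (adjusted p = 0.21) against 2.25 in WT, and Bcl3, an atypical NF-kB inhibitor, -0.04 against 0.90. A rise passed without STAT3 at 2 cytokine genes, smaller than in WT at both. Lif, an IL-6 family cytokine, read 4.89, 4.59 and 4.75 in Tc1 and 6.03, 6.18 and 5.77 in Tc17, a rise of 1.22 ± 0.16 against 3.83 ± 0.16 in WT. Il24, of the IL-10 family, read 4.15, 4.26 and 4.27 against 4.82, 5.02 and 5.21, a rise of 0.76 ± 0.11 against 4.86 ± 0.11 in WT. It is 1 of the 4 genes that entered through WT. Background limits its STAT3-/- readings, and so the comparison of the 2 sizes. The Il24 call was lost without STAT3-/- Tc17 replicate 2 (adjusted p = 0.105) or Tc1 replicate 1 (0.0862). Fosl2, an AP-1 factor, went opposite ways: it read 8.44, 8.31 and 8.51 in STAT3-/- Tc1 and 7.81, 7.79 and 7.85 in STAT3-/- Tc17, a fall of 0.61 ± 0.09, against a rise of 0.91 ± 0.09 in WT (difference -1.52 ± 0.13). The fall alone did not pass without any 1 STAT3-/- sample (0.0565 to 0.113).

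Of 21 tested genes of the type 1 and IL-12 program (23 listed), 3 rose and 6 fell in STAT3-/- cells, with a median of 0.00, where 1.01% of all tested genes fell. In WT 2 rose and 10 fell, with a median of -0.36, where 18% of all tested genes fell; 7 had a more positive change without STAT3 and 1 a more negative one. The STAT3-/- falls were 5 without the technical arrays and 2 to 4 without 1 STAT3-/- sample. Ifng, the signature cytokine of Tc1 cells, read 7.87, 7.51 and 8.12 in STAT3-/- Tc1 and 7.08, 7.29 and 6.81 in STAT3-/- Tc17. Those arrays were lower in Tc17 without overlap, by 0.78 ± 0.11 (adjusted p = 0.0057), while WT cells changed by -3.28 ± 0.11, a difference of 2.50 ± 0.15 (adjusted p = 5.9e-05). The STAT3-/- fall did not pass without the technical arrays (-0.50, adjusted p = 0.0891), with the technical array averaged with replicate 1 (-0.63, 0.0593), or without either Tc17 sample or Tc1 replicate 1 (0.0549 to 0.0758). Il18r1 fell by 2.58 without STAT3 and by 2.26 in WT (difference -0.32 ± 0.19, adjusted p = 0.34). Its partner chain Il18rap read 7.13, 6.88 and 6.81 against 5.96, 5.79 and 5.53, a change of -1.18 ± 0.21 (adjusted p = 0.023) that did not pass without any 1 STAT3-/- sample (0.0689 to 0.223).

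Of the type 1 transcription factors, Eomes read 6.53, 6.05 and 6.03 in Tc1 and 5.47, 5.23 and 5.30 in Tc17, a change of -0.92 ± 0.16 (adjusted p = 0.022; 0.0853 to 0.217 without either Tc17 sample or Tc1 replicate 1). Tbx21, which encodes T-bet, read 7.15, 6.94 and 7.35 against 6.83, 6.70 and 6.84, and its change of -0.35 ± 0.10 did not pass (adjusted p = 0.19); in WT it was -0.99 ± 0.10. The Tbx21 difference of 0.64 passed (adjusted p = 0.036) but not without any 1 STAT3-/- sample or Tc1 WT sample (0.0865 to 0.15). Il12rb2, the signalling chain of the IL-12 receptor, was high in both groups, 10.71 to 10.90 against 9.97 to 10.29 (-0.62 ± 0.11, adjusted p = 0.022), and the call was lost without any 1 STAT3-/- sample (0.123 to 0.23). The 3 rises in this list were Xcl1, Ccl3 and Irf8. For Ccl3, an inflammatory chemokine, the arrays overlapped (5.75, 5.54 and 7.21 against 7.04, 7.07 and 7.74; 1.16 ± 0.21), and the call was lost under 7 alternatives (0.0521 to 0.241). Irf8, an interferon regulatory factor, rose by 0.64 ± 0.09 (0.0747 without Tc1 replicate 1, 0.123 without Tc17 replicate 2 and 0.0938 with the mean of its probe sets).

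Cytotoxic granule genes split. Of 12 tested (17 listed), 1 rose and 3 fell in STAT3-/-, against 5 and 7 in WT. Without STAT3, 3 changes were more positive and 1 was more negative. Prf1, the pore-forming protein perforin, read 9.08, 8.84 and 9.88 in Tc1 and 8.11, 8.03 and 8.17 in Tc17, a change of -1.11 ± 0.13 beside -0.90 ± 0.13 in WT. Gzmb, the main granzyme of killer T cells, read 12.07, 12.10 and 12.08 against 11.95, 11.92 and 11.83. Its change of -0.17 (95% interval -0.38 to 0.04) did not pass, while WT cells changed by -1.16 ± 0.09 (difference 0.99 ± 0.13, adjusted p = 0.0038). Nkg7, a granule membrane protein, had -0.21 ± 0.11 in STAT3-/- and -1.19 ± 0.11 in WT. Fasl, the death ligand on the list of type 1 genes, changed by 0.02 (-0.19 to 0.24) in STAT3-/- and -1.78 ± 0.09 in WT, and the chemokine Ccl5 by -0.63 ± 0.20 (adjusted p = 0.23) and -2.31 ± 0.20. The granzymes Gzmk (-0.95 ± 0.17) and Gzma (0.87 ± 0.15) went opposite ways without STAT3, each at an adjusted p of 0.022 and each lost when some single STAT3-/- samples were left out: Gzmk without either Tc17 sample or Tc1 replicate 1 (0.113 to 0.181), Gzma without either Tc17 sample or Tc1 replicate 2 (0.0744 to 0.178).

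Genes induced by IFN-gamma showed 0 rises and 1 fall (Gbp7) among 14 tested of 22, with a median of -0.03. In WT 1 rose and 9 fell, with a median of -0.69, and 7 changes were more positive without STAT3. Ifngr2, the signalling chain of the IFN-gamma receptor, read 5.66, 5.50 and 5.74 in STAT3-/- Tc1 and 7.34, 7.06 and 7.34 in STAT3-/- Tc17. The groups were well apart (1.63 ± 0.10, adjusted p = 8.8e-05), and the WT rise was larger, 3.21 ± 0.10. The cell cycle list had 0 calls among 24 tested genes in STAT3-/- (median -0.11), under every alternative run, against 21 falls in WT (median -0.53). Its 4 genes with a difference included Mcm5, a subunit of the replicative helicase (0.03 ± 0.09 against -0.75 ± 0.09). The glycolysis, cholesterol synthesis, BCL2 family, and STAT, JAK and SOCS lists had 0 calls in STAT3-/- among 22, 19, 11 and 17 tested genes, and the last 3 gained 1 to 4 under some alternatives. At an unadjusted p under 0.05 those 4 lists had 1, 1, 1 and 5 genes, and the cell cycle list had 4. Of all tested genes 2.07% were called in STAT3-/-, so 0 calls in a list of 24 or fewer is near the general rate. In WT 18% of all tested genes fell. Of the other lists, the inhibitory receptors had 1 rise (Cd200) and 1 fall (Havcr2) among 17 tested, with 8 rises and 2 falls when the technical arrays were left out. The chemokine receptors and integrins had 2 and 1 among 15, the cytokine receptors 1 and 3 among 22, the tissue residence genes 3 and 1 among 11, and the activation and AP-1 factors 0 and 1 among 19. The NK receptors and the type I interferon genes had 0 calls among 6 and 4 tested, with 3 and 1 genes at an unadjusted p under 0.05.

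Among receptors and ligands, Ccr8, a chemokine receptor of skin-homing and regulatory T cells, read 3.88, 4.03 and 4.36 in Tc1 and 5.22, 5.23 and 5.84 in Tc17 (1.34 ± 0.15, against 0.61 ± 0.15 in WT; difference not passing, adjusted p = 0.072). Tnfsf11, which encodes RANKL, read 5.64, 5.28 and 5.53 against 6.69, 6.88 and 6.36, a rise of 1.13 ± 0.12 where WT had 0.03 ± 0.12 (difference 1.10 ± 0.17). Lta, which encodes lymphotoxin alpha, rose by 0.63 ± 0.12 (adjusted p = 0.031), which was lost without any 1 STAT3-/- sample (0.0796 to 0.253). Of 11 tested costimulatory receptors 3 fell and 8 did not pass, with a median of -0.06. The falls were Tnfrsf8 or CD30 (-1.02 ± 0.16), Icos (-0.48 ± 0.09) and Cd28 (-0.44 ± 0.09). All 3 calls depended on single STAT3-/- samples: Tnfrsf8 did not pass without Tc17 replicate 2 or either Tc1 sample (0.0568 to 0.107), and Icos and Cd28 without any 1 (0.0964 to 0.231 and 0.132 to 0.415). Of the naive and memory list, 2 of 14 fell: Satb1, a chromatin organiser (8.74, 8.56 and 8.61 against 7.80, 7.96 and 7.70; -0.85 ± 0.09), and Slamf6, a SLAM family receptor (-1.13 ± 0.14; -0.44 and adjusted p = 0.0589 with the mean of its 2 probe sets). Satb1 rose in WT by 0.72 ± 0.09.

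**Figure D4:**
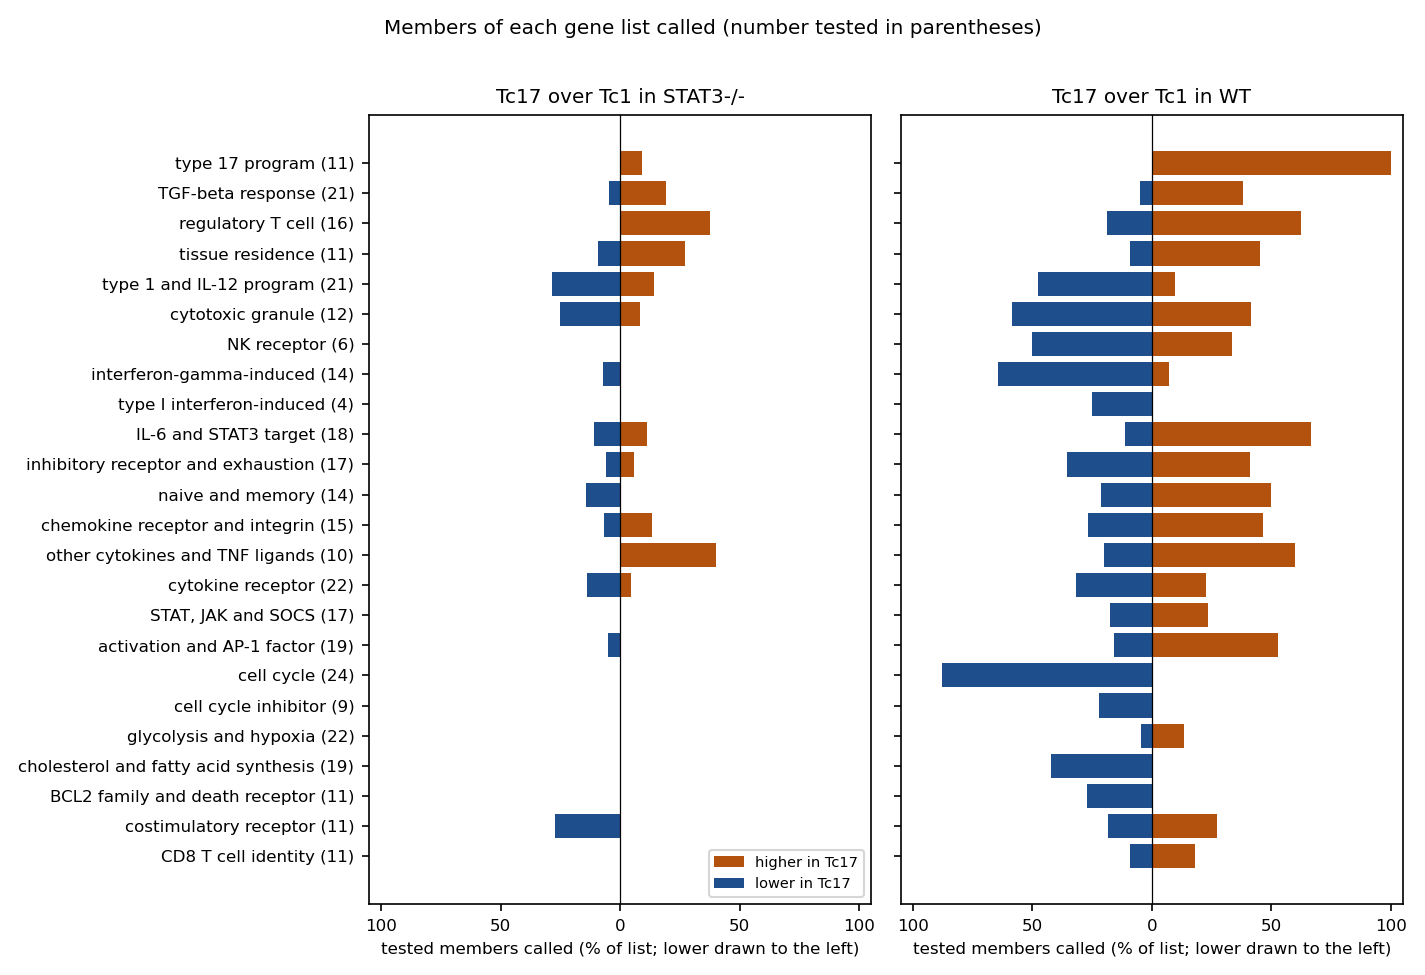
Percent of the tested genes of each list that were higher in Tc17 than in Tc1 (bars to the right) or lower (bars to the left), in STAT3-/- cells (left panel) and WT cells (right panel), for lists with at least 3 tested genes. The cell cycle list has 0 calls in STAT3-/- and 21 falls of 24 in WT. The regulatory T cell list has 6 rises and 0 falls of 16 in STAT3-/-, and 10 rises and 3 falls in WT. Over all tested genes 1.05% were higher and 1.01% lower in STAT3-/-, and 7.01% and 18% in WT.

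Several genes rose in Tc17 cells of the STAT3-/- genotype while WT cells did not rise, and the difference passed for each. WT changes were 0.08 for Tmem273, 0.28 for Car2, 0.16 for Myo1e and -0.28 for Xcl1, giving differences of 2.57, 1.99, 1.52 and 2.58. Clnk and Tph1 fell in WT, by 0.62 and 0.45, so that their differences were 2.75 ± 0.18 and 2.18 ± 0.16. The WT fall of Clnk did not pass under 2 of 24 alternatives. That of Tph1 did not pass under 6 of 24, among them centring on tested genes (-0.33, limma adjusted p = 0.094). On the falling side, Cxcr6 had -0.26 ± 0.14 in WT (difference -1.43) and Fam20a -0.64 ± 0.10 (difference -1.22). Havcr2, Ly6c2 and Serpinb6b fell in both genotypes but less without STAT3, with WT changes of -3.31, -4.20 and -3.12. For Ly6c2 that difference, 1.89 ± 0.40, did not pass without any 1 STAT3-/- sample or Tc1 WT sample (0.0564 to 0.106). For Serpinb6b the difference of 1.20 did not pass without STAT3-/- Tc17 replicate 1, STAT3-/- Tc1 replicate 2, Tc17 WT replicate 2 or Tc1 WT replicate 1 (0.0562 to 0.0753), nor without the Tc17 WT technical array alone (0.0524) or with technical arrays as samples of their own (0.0835). Cpd rose in both and less without STAT3 (WT 4.13 ± 0.16; difference -1.24, which did not pass without STAT3-/- Tc17 replicate 1, 0.0674, or Tc1 replicate 1, 0.0549).

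The clearest opposite changes were Emp1, an epithelial membrane protein, and Alpk2, an alpha-kinase. Emp1 read 6.73, 6.66 and 7.24 in STAT3-/- Tc1 and 5.58, 5.38 and 5.41 in STAT3-/- Tc17, a change of -1.35 ± 0.12 (-0.69 with the mean of its 2 probe sets), and rose by 1.23 ± 0.12 in WT. Alpk2 read 6.69, 6.38 and 6.52 against 5.55, 5.26 and 5.64 (-1.07 ± 0.15; WT 1.57 ± 0.15), and did not pass in STAT3-/- without Tc17 replicate 2 (0.0722), without Tc1 replicate 1 (0.0606) or with the mean of its 2 probe sets (-0.55, 0.0679). Ermn, Bst1, Mir5104 and Glp1r also had opposite signs, with STAT3-/- changes of -1.07, -0.74, -0.83 and 0.81 and WT changes of 1.23, 1.30, 0.96 and -1.0, but their STAT3-/- calls were lost under 5 to 11 alternatives each, STAT3-/- Tc1 replicate 1 left out among them (0.165 to 0.272). Small rises remained for 3 genes that rose strongly in WT: Cysltr1, a leukotriene receptor (0.65 ± 0.11 against 4.15), Igfbp4, which binds insulin-like growth factors (0.74 ± 0.11 against 3.90), and Muc13, a membrane mucin (1.31 ± 0.23 against 3.91). Of these 3, Cysltr1 was tested only through its WT mean, so background limits its STAT3-/- readings and the comparison of its 2 sizes. Each of these 3 was lost without STAT3-/- Tc17 replicate 1 (0.205, 0.082 and 0.177), Tc17 replicate 2 (0.117, 0.0971 and 0.0568) or Tc1 replicate 2 (0.125, 0.0516 and 0.105), and Igfbp4 and Muc13 also without Tc1 replicate 1 (0.0778 and 0.146).

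Markers of other cell types moved at 2 genes. Cd79b, a chain of the B cell receptor, read 6.80, 6.52 and 6.87 in STAT3-/- Tc1 and 7.62, 7.55 and 7.44 in STAT3-/- Tc17, a rise of 0.81 ± 0.11 that did not pass without either Tc17 sample or Tc1 replicate 2 (0.0539 to 0.0821). Of 7 B cell markers 6 were measured and 4 of these stayed under the filter, with Ms4a1 (CD20) at 2.34 to 2.50 and Cd79a at 3.72 to 4.08 on the 6 arrays. Ighm, the other tested one, changed by 0.35 ± 0.10 (adjusted p = 0.15). The summed log2 level of the 6 was 31.45 to 32.33 in Tc1 and 32.31 to 32.56 in Tc17. Cd68, a lysosomal protein of macrophages, read 7.82, 7.61 and 7.87 against 6.74, 6.85 and 6.89 (-0.98 ± 0.11). The other 10 of 11 myeloid markers stayed under the filter, with Csf1r at 3.95 to 4.58 and Lyz2 at 2.96 to 3.83, and the summed level of the 11 was 42.78 to 43.82 in Tc1 and 41.41 to 41.84 in Tc17. NK and innate-like T cell markers (4 measured, 1 tested) summed to 14.30 to 15.47 and 14.53 to 15.21, and 0 of the measured erythroid and stromal markers reached the filter. The part of B or myeloid cells in any other result was not tested.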

How the data were processed

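RNA from 12 samples' arrays (Affymetrix, biotin label) was read from the deposited table, which holds a log2 value for each probe set on each array. These log2 values were made by the authors with RMA and Partek, per the submitters' processing notes, with versions and roles not given in the sources used here. RMA corrects background and summarises probes, which narrows differences near background. Of 41345 probe sets, 23521 carried 1 gene symbol in the platform annotation, 1814 several and 16010 none as used here; 23328 Entrez identifiers matched RefSeq's table for GRCm38.p6, with 0 symbols changed. For 1082 genes with several probe sets the brightest was used. Genes under 5 in all 4 group means were left out. limma 3.58.1 (R 4.3.3) was fitted to 8 samples in 4 groups (4 residual and 4.87 prior degrees of freedom), with contrasts for STAT3-/-, WT and their difference, Benjamini-Hochberg adjustment over 9862 genes and a threshold of 0.05. Intervals are 95%. Figures were drawn with matplotlib 3.10.9. The fit was tested on simulated data.

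The comparison, gene lists and named genes were chosen with earlier results of these data known. Named genes are the 12 largest rises and 12 largest falls called in STAT3-/- with arrays that do not overlap. To these were added up to 4 called members of each list, else up to 2, and a set of lineage genes. The 8 largest STAT3-/- changes called in both genotypes with the same sign, and without a called difference, were also named. So were the 6 most positive and 6 most negative differences among called genes, and up to 6 genes of opposite sign. Ebi3, Ikzf2, Ccl3, Irf8, Id2, Smad3, Il6ra, Bcl3, Fasl, Ccl5, Nkg7, Mcm5, Cd8b1, Ighm, the 4 B and myeloid genes given under the filter, and the genes of the closing observations were named after their values were seen. Alternatives covered the technical array, the replicate block, samples left out, scaling, filters, probe sets and the variance model. For arrays, 2 samples per group limit the precision.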

Additional observations from a re-analysis of the deposited data

Results flagged for a closer look

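Each result here is a difference between genotypes in the change from Tc1 to Tc17 (STAT3-/- minus WT, log2), tested as an interaction with limma over all genes; 676 genes passed at an adjusted p under 0.05. More negative without STAT3 were Il17f (-4.40), Il24 (-4.10), Il17a (-3.87), Cysltr1 (-3.50), Igfbp4 (-3.15), Maf (-3.00), Il21 (-2.92), Alpk2 (-2.63), Lif (-2.60), Muc13 (-2.60), Emp1 (-2.58), Ermn (-2.30), Bst1 (-2.04), Il6ra (-1.89), Mir5104 (-1.79), Ifngr2 (-1.58), Satb1 (-1.56), Fosl2 (-1.52), Klrc1 (-1.46), Cxcr6 (-1.43), Tnfrsf8 (-1.38), Cpd (-1.24), Fam20a (-1.22), Socs3 (-1.17), Smad3 (-1.14), Cd68 (-1.09), Bcl3 (-0.93) and Hif1a (-0.93). Il17f, Il24, Il17a, Cysltr1, Maf, Il21 and Klrc1 were tested only through their WT means, which already favoured a difference by genotype. Background limits their STAT3-/- readings, and so the size and order of these differences.

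More positive without STAT3 were Clnk (2.75), Xcl1 (2.58), Tmem273 (2.57), Ifng (2.50), Tph1 (2.18), Car2 (1.99), Ly6c2 (1.89), Glp1r (1.81), Fasl (1.80), Ighm (1.70), Ccl5 (1.67), Cd244a (1.52), Myo1e (1.52), Havcr2 (1.28), Serpinb6b (1.20), Tnfsf11 (1.10), Bcl2l11 (1.02), Gzmb (0.99), Socs2 (0.99), Nkg7 (0.98), Ikzf2 (0.96), Dhcr7 (0.93), Mcm5 (0.78), Cd79b (0.74) and Tbx21 (0.64). The Ighm difference was 0.46 with the mean of its 7 probe sets (adjusted p = 0.0624), and that of Hif1a -0.49 with the mean of its 2 (0.197).

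Among genes of the closing observations, the differences were Ifitm2 (-1.72), Ifitm3 (-1.0), Sytl2 (1.42), Sema6d (1.10), Sema4a (0.99) and St3gal2 (0.96). No weighing of causes was made.

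Some of these differences were lost under alternatives. Those of Dhcr7 (adjusted p up to 0.147), Bcl2l11 (0.14) and Tbx21 (0.15) did not pass without any 1 STAT3-/- or Tc1 WT sample, nor without the dim filter, and that of Dhcr7 also not with cyclic loess. That of Ikzf2 (up to 0.111) was lost without either STAT3-/- Tc17 sample, STAT3-/- Tc1 replicate 2 or either Tc1 WT sample, with cyclic loess or without the dim filter. That of Cd79b (up to 0.133) was lost without any 1 STAT3-/- sample, Tc17 WT replicate 2, Tc1 WT replicate 1 or the dim filter. Without either STAT3-/- Tc17 sample Bcl3 and Mcm5 did not pass, nor did Bcl3 without STAT3-/- Tc1 replicate 1 or Mcm5 without Tc1 WT replicate 2 (up to 0.0656 and 0.0638). Nkg7 was lost without STAT3-/- Tc17 replicate 2 (0.0536) and Sema6d without replicate 1 (0.0533). The Ifitm3 difference was lost under 10 of 23 alternatives (0.0508 to 0.146), among them either STAT3-/- Tc17 sample or either Tc1 WT sample left out. The losses for Cpd, Ly6c2 and Serpinb6b are given with their values.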

How the results depend on the processing

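The 204 STAT3-/- calls ranged from 65 to 247 with 1 sample left out, and were 409 without the technical arrays. The 2468 WT calls ranged from 1098 to 3242 with 1 sample left out (1098 and 1305 without Tc1 WT replicates 1 and 2), and were 1479 with WT groups alone in the fit. The 676 differences ranged from 244 to 1553 with 1 sample left out (1553 without Tc17 WT replicate 1), and were 1259 without the technical arrays and 384 with no dim filter. The 120 genes changed alike ranged from 43 to 148, and were 205 without the technical arrays. With the replicate number as a block, the counts were 295, 3039, 1018 and 173; the deviations of same-numbered STAT3-/- Tc1 and Tc17 samples correlated at 0.16 and those of Tc1 WT and STAT3-/- Tc1 at 0.455 (0.172 over biological arrays alone), and the labels do not say that a number marks a shared culture. A block on the kind of array over 12 arrays, chosen after seeing the data, gave 272, 2996, 976 and 166. Counts under all other alternatives stayed within 1.5 times of those reported. Fits on 1 genotype give no difference. The share of rises among WT calls was 28.0% as deposited, 50.5%, 18.5%, 50.4% and 44.5% after centring on tested genes, centring on all probe sets, cyclic loess and quantile normalization, and the share of more positive differences was 65.4%, 42.2%, 73.5%, 43.2% and 48.8%; the WT median moved from -0.104 to 0.012 with centring on tested genes, that of STAT3-/- from 0.00 to 0.002. Of 74 named STAT3-/- calls, 35 were lost under at least 1 alternative, 13 of them only with a sample left out. No called value changed sign; 104 of 8102 alternative values, called in neither setting, did. The causes of these shifts were not tested.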

Other observations

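Other genes that changed in STAT3-/- cells were picked out after their values were seen. They are in none of the gene lists, so no count of a group is given. Lists of nearby themes changed little or were mixed in STAT3-/-. The cytotoxic granule genes had 1 rise and 3 falls among 12 tested, the IFN-gamma-induced genes 1 fall among 14, and the type I interferon genes 0 calls among 4. The granule and lysosome trafficking genes Lyst and Sytl2 fell. Lyst, the lysosomal trafficking regulator, read 8.09, 7.97 and 7.94 in Tc1 and 6.84, 6.80 and 6.86 in Tc17 (-1.19 ± 0.10, adjusted p = 0.00038), beside -1.61 ± 0.10 in WT. Sytl2, a Rab27 effector of vesicle docking, read 7.18, 6.84 and 7.13 against 6.17, 6.22 and 5.83 (-0.99 ± 0.11), beside -2.40 ± 0.11 in WT. The interferon-induced membrane proteins Ifitm2 (-1.37 ± 0.18) and Ifitm3 (-1.11 ± 0.17) fell without STAT3, where WT cells had 0.35 and -0.12. The Ifitm2 fall did not pass without STAT3-/- Tc1 replicate 1 (adjusted p = 0.0581) and the Ifitm3 fall not without either Tc17 sample (0.0736 and 0.0996).

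Plxnc1, which fell by 1.92, is a receptor of the semaphorin Sema7a, which had 0.66 ± 0.14 (adjusted p = 0.047, not passing under 13 of 24 alternatives, any 1 STAT3-/- sample but Tc1 replicate 2 left out among them, 0.166 to 0.39). Sema4a read 9.25, 8.92 and 9.56 in Tc1 and 8.26, 8.26 and 7.92 in Tc17 (-1.07 ± 0.10), and Sema6d 4.66, 4.58 and 4.42 against 5.94, 5.42 and 6.12 (1.27 ± 0.13). Of the glycosyltransferase genes that passed, only 3 are given, and others rose or fell, with a relative of St3gal2 among the falls. The sialyltransferase St3gal2 rose by 1.53 ± 0.11 and the N-glycan branching enzyme Mgat5 by 0.99 ± 0.10, and Galnt3, which starts O-glycans, fell by 1.47 ± 0.15. In WT these 3 changed by 0.57, 0.76 and -1.80.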
